A study of Homo sapiens with 6 samples.

Results

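The CCND1 and FGF gene locus on the long arm of chromosome 11 was taken as the 50 bins of 40 kb between chr11:68400001-70400000 (hg19), out of 64423 bins with contacts in both maps of the series. Its 5 genes of interest, MYEOV, CCND1, FGF19, FGF4 and FGF3, were chosen by name from the 21 protein-coding genes that overlap the window. The series is Hi-C of LNCaP, an established prostate cancer cell line. Hi-C joins DNA ends that lie close together in the nucleus and counts the joined pairs as contacts. Control siRNA cells received 20 nM of a non-targeting siRNA pool (2 libraries) and CTCF siRNA cells received 20 nM of an siRNA pool against CTCF (4 libraries), and all were collected at 144 h. The authors pooled the libraries into 1 contact map and 1 list of topologically associated domains (TADs) per condition. With 1 map per condition there is no replicate error and no test, so every interval below is a 95% interval, and every ± a standard deviation, for counting error only. The siRNA was directed at CTCF itself and not at single sites. Neither the amount of CTCF left nor its binding at each site was measured in the files used here.

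CCND1 encodes cyclin D1, the regulatory partner of the kinases CDK4 and CDK6 that drive cells from G1 into S phase. FGF19 encodes a hormone-like fibroblast growth factor that regulates bile acid synthesis, whereas FGF3 and FGF4 encode secreted growth factors used mainly in the embryo. The genes lie side by side in a segment that is amplified together in many carcinomas, and MYEOV, first found as overexpressed in myeloma, marks the opposite side of the gene desert upstream of CCND1. Common variants associated with prostate cancer risk lie on that MYEOV side. TADs are stretches of chromosome whose parts contact one another more than their surroundings, and many of their boundaries are bound by the zinc-finger protein CTCF.

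CCND1 (ENSG00000110092, chr11:69455924-69469242, + strand) starts in the bin chr11:69440001-69480000. MYEOV (ENSG00000172927, chr11:69061605-69182494, + strand) starts 394 kb before it. FGF19 (ENSG00000162344, chr11:69513006-69518790, - strand), FGF4 (ENSG00000075388, chr11:69585790-69590109, - strand) and FGF3 (ENSG00000186895, chr11:69624736-69634184, - strand) start 62.9, 134 and 178 kb after it. TPCN2, which encodes a cation channel of endolysosomes, spans chr11:68816400-68903784 on the + strand, on the far side of MYEOV.

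Because the siRNA targeted CTCF, the reference sequence (GRCh37, the same build as hg19) was searched on both strands for the core CTCF consensus of 12 bases. The window held 11 matches in 10 of its 50 bins, which is 20.0% of bins, against 15.6% of the 3281 sequenced bins of chromosome 11. Bins of mostly unknown bases were left out of the chromosome's share but not of the window's, and GC content was not matched. No ChIP-seq was used, so a match describes letters and not a bound site. The matches in the bins at the TAD edges described below are shown 5′ to 3′ on their own strand, with the core in capitals and 8 bases on each side. Coordinates are those of the core.
TPCN2 boundary bin, chr11:68856338-68856349, - strand, within TPCN2: ccatcccaCCACTAGATGGCacccaaac
FGF19 bin, chr11:69485175-69485186, - strand, within LTO1: ctgtgctaCCACTAGGTGGCagtcaaag
FGF19 bin, chr11:69498829-69498840, - strand, between LTO1 and FGF19: cactgcatCCAGCAGGTGGCagcccaag
End of the FGF gene TAD, chr11:69657049-69657060, - strand, between genes: ccgactctCCAGCAGAGGGCagtctcct
The FGF19 bin was the only bin of the window with more than 1 match. The CCND1, MYEOV and FGF4 bins held none of these letters, and 1 further match lay on the MYEOV side, at chr11:68967806-68967817.

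The maps held 13665319 contacts within chromosomes in control siRNA and 56304241 in CTCF siRNA. All 50 bins passed the coverage filter. The reference has 100000 unknown bases in 4 bins of the window, in 2 runs between 69089802 and 69774695. The bins at 69080001, next to the MYEOV bin, and 69720001 have too few known bases for a GC value. The second of them holds the TAD edge at 69740000 that both lists share. The part of these gaps in the values was not tested. Contacts between window bins numbered 8156 in control siRNA and 54392 in CTCF siRNA, so values of the CTCF siRNA map are more precise throughout. The window was rich in GC (median 50.8% per bin, against 40.2% over chromosome 11), and its bins held a median of 1.18 times the chromosome's median contacts in control siRNA and 2.09 times in CTCF siRNA. The member bins held 0.659 (FGF3) to 3.04 (FGF4) times the median in control siRNA and 1.36 (MYEOV) to 5.83 (FGF4) times in CTCF siRNA, and had from 3 (MYEOV) to 16 (FGF4) BglII sites. With expected contacts set by distance alone, all contacts between window bins were 1.46 times as high in CTCF siRNA, and 0.968 times once the coverage of both bins was balanced. Contacts between places are given below as observed over expected from the balanced maps, and insulation values compare contacts across a bin with those within its own flanks, where such a shift cancels. The part of GC content, restriction sites and coverage in the differences was not tested.

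In control siRNA the members lay in neighbouring TADs, and in CTCF siRNA the domain with MYEOV and CCND1 was listed as 1 TAD with its neighbour on the TPCN2 side, while that of the FGF genes was listed as before. The control TAD at 68860001-69460000 (600 kb) held the starts of MYEOV and CCND1, together with SMIM38. Its edge at 69460000 lies inside the CCND1 gene and divides its bin, so the side on which CCND1 falls is below the 40 kb resolution. The next control TAD, at 69500001-69660000 (160 kb), held FGF19, FGF4 and FGF3 and no other start of a protein-coding gene. On the far side of TPCN2 another control TAD, at 68340001-68820000 (480 kb), held 8 gene starts, from GAL through CPT1A and IGHMBP2 to TPCN2. Its edge at 68820000 likewise lies inside the TPCN2 gene and divides the bin of its start. In the CTCF siRNA list 1 TAD of 1320 kb, at 68180001-69500000, covered both of the domains before the FGF genes. The FGF gene TAD had the same coordinates in both lists. After it, the TAD of ANO1 and FADD was 360 kb in control siRNA and 440 kb in CTCF siRNA, and that of CTTN 560 and 1160 kb.

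**Figure D1:**
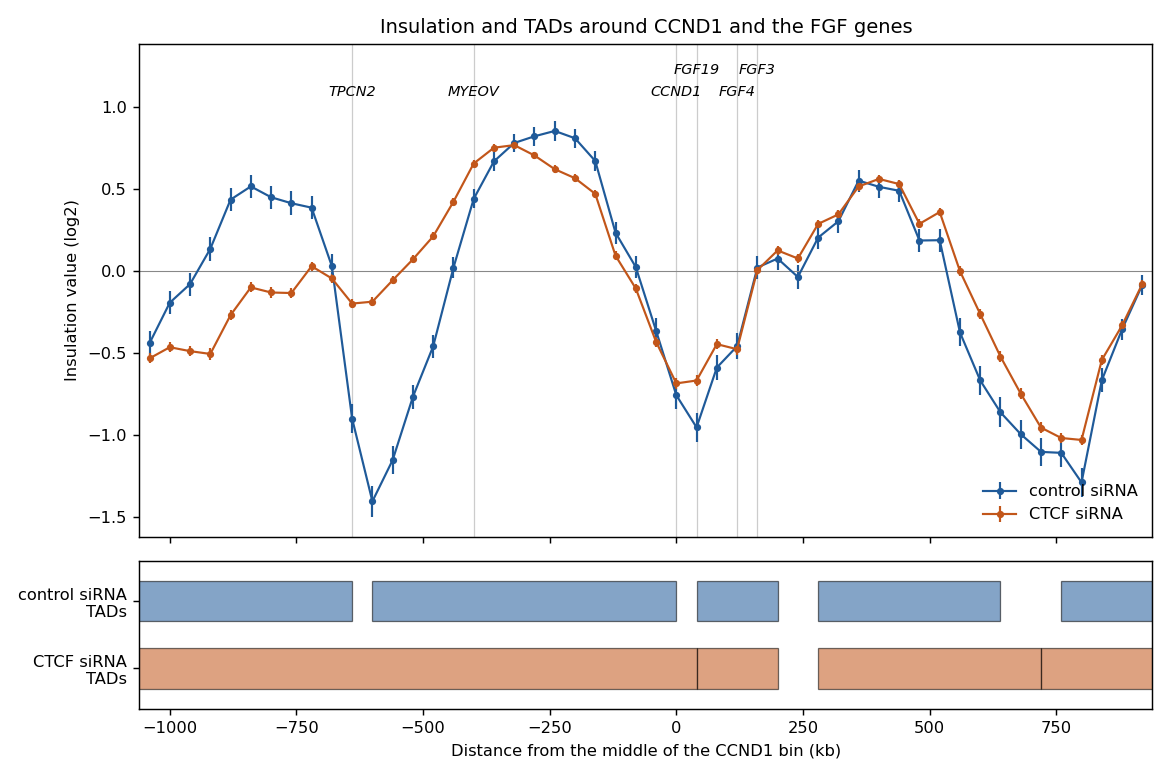
Insulation value of each 40 kb bin (log2, upper panel, error bars are counting standard deviations) and the deposited TADs (lower panel) against distance in kb from the middle of the CCND1 bin. The minimum at TPCN2 reached -1.40 in control siRNA and was at -0.19 in CTCF siRNA, while the minimum at CCND1 and FGF19 was present in both maps.

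Of the 8 control TAD edges in the window, 5 had a CTCF siRNA edge within 40 kb, against 51.8% of the 3829 control edges on the autosomes. All 4 CTCF siRNA edges in the window had a control edge within 40 kb, against 62.8% of 3036. The 3 control edges without a partner lay at 68820000 and 68860000, inside TPCN2, and at 70100000, in the bin where PPFIA1 starts.

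The boundary between CCND1 and the FGF genes stayed in both maps. In control siRNA it ran from the edge at 69460000, in the CCND1 bin, to the edge at 69500000, in the bin of LTO1 and FGF19, and in CTCF siRNA the TADs met at 69500000. The insulation value is the log2 of contacts across a bin over expected, less the log2 of contacts within the 400 kb on each side, so a low value marks a boundary. At the CCND1 bin it was -0.76 ± 0.08 in control siRNA and -0.68 ± 0.03 in CTCF siRNA. The change of 0.07 (-0.10 to 0.24) was within counting error. At the FGF19 bin it was -0.95 ± 0.09 and -0.67 ± 0.03, a rise of 0.29 (0.10 to 0.47) that stayed below the 0.5 used as the call, and that was 0.13 (0.02 to 0.24) with flanks of 800 kb.

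The lowest bin between CCND1 and FGF3 was thus the FGF19 bin in control siRNA and the CCND1 bin in CTCF siRNA, where the neighbouring values of -0.68 and -0.67 could not be told apart. These values were among the lower ones of the autosomes in both conditions. Of 58216 usable autosomal bins, 13.9% were at or below the CCND1 bin in control siRNA and 7.86% in CTCF siRNA. For the FGF19 bin the shares were 9.01% and 8.26%.

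Contacts across the line between the CCND1 and FGF19 bins, with 400 kb on each side, were below expected in both maps. They numbered 416 against 677 expected in control siRNA, a value of 0.615 (0.557 to 0.677), and 2979 against 4502 in CTCF siRNA, or 0.662 (0.638 to 0.686). The ratio between the maps was 1.08 (0.97 to 1.2). Across the edge at 69460000 the ratio was 0.993 (0.890 to 1.11), and across the edge at 69500000 it was 1.1 (0.979 to 1.24). Both ratios lay below the median of 1.28 over 3316 control edges of the autosomes, of which 27.7% rose by at least 1.5-fold. With the distance-only expectation the line's ratio was 1.55, or 1.06 relative to the shift of the whole window.

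The boundary inside TPCN2, where the listed MYEOV and CCND1 domain ended on its other side in control siRNA, was lost from the list. The bin at 68840001-68880000, which holds a CTCF core match and the control edge at 68860000, had the lowest insulation of the window in control siRNA, -1.40 ± 0.10. In CTCF siRNA it was at -0.19 ± 0.03. This rise of 1.22 (1.02 to 1.41) was matched or exceeded by 446 of the 58216 autosomal bins, and the bin is named because its rise was the largest in the window.

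Contacts across an edge also enter the insulation value of its bin. Those at 68860000 therefore describe the bin chosen for its rise again, and are not a further result. They numbered 250 against 495 expected in control siRNA, a value of 0.505 (0.444 to 0.572). In CTCF siRNA they numbered 3602 against 3634, or 0.991 (0.959 to 1.02). The ratio of 1.96 (1.73 to 2.24) was higher than at 92.2% of the autosomal control edges. At the edge at 68820000, 40 kb away, the ratio was 1.42 (1.26 to 1.6). All other control edges of the window had ratios between 0.933 and 1.123, each with an interval that held 1. With blocks of 200 kb, the edge at 69660000 had a ratio of 0.819 (0.722 to 0.931), which left out 1, and the edges inside TPCN2 had 1.74 and 2.62. By distance alone, where all window contacts shifted by 1.46, the ratios inside TPCN2 were 3.08 at 68860000 and 2.21 at 68820000. They were from 1.43 to 1.75 at the other 6 edges.

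**Figure D2:**
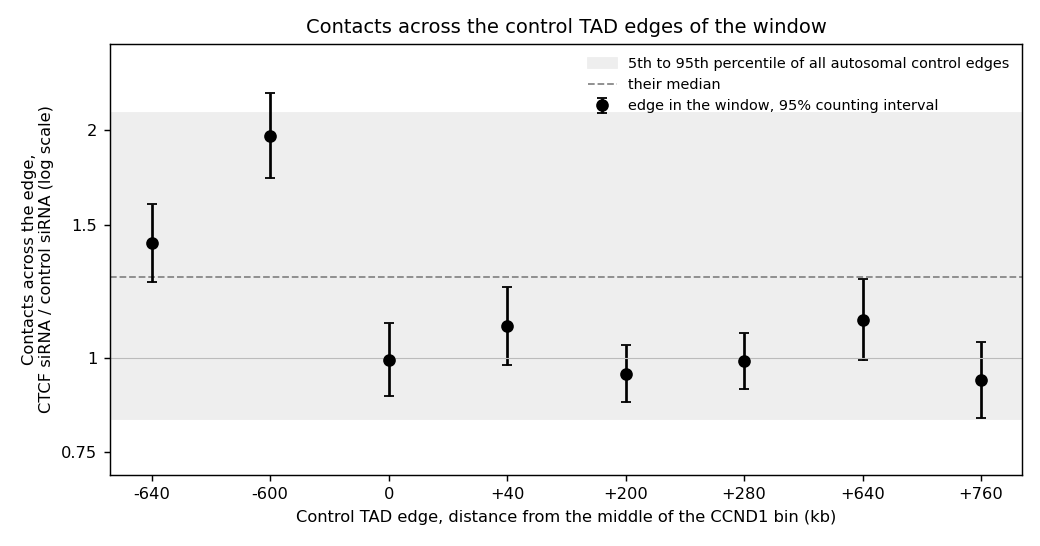
Contacts across each of the 8 control TAD edges of the window, as the ratio of CTCF siRNA to control siRNA observed over expected (log scale), by distance of the edge from the middle of the CCND1 bin in kb. Points carry 95% counting intervals, the grey band spans the 5th to 95th percentile of the autosomal control edges and the dashed line is their median of 1.28. The edges inside TPCN2, at -640 and -600 kb, had the highest ratios, and those at 0 and +40 kb, between CCND1 and FGF19, were near 1.

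Across the window, 5 of 50 bins rose in insulation by at least 0.5 and 5 fell by at least 0.5, against 12.8% and 3.77% of autosomal bins, so the share of risen bins was near the background. The risen bins formed 1 run, 68800001-69000000, from the start of TPCN2 into the MYEOV side, with changes from 0.67 to 1.22. The fallen bins formed another, 68520001-68720000, over CPT1A, MRPL21 and IGHMBP2, with changes from -0.70 to -0.55. The number of fallen bins depended on the flanks, with 1 at 200 kb and 3 at 800 kb. None of the 5 member bins was among the called bins.

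The domains on either side of the TPCN2 boundary contacted each other more in CTCF siRNA. Contacts between the whole bins of the control TADs at 68340001 and 68860001 were 364, or 0.694 of expected, in control siRNA, and 4502, or 1.123 of expected, in CTCF siRNA. The ratio was 1.62 (1.45 to 1.81), and 22.6% of 2280 pairs of neighbouring autosomal control TADs rose by at least 1.5-fold. Most bin pairs between these domains also lie in the block across the bin chosen for its rise, so this ratio is not a further result. Between the MYEOV and CCND1 domain and the FGF gene domain, whole bins had 226 contacts, or 0.734 of expected, and 1515, or 0.703 of expected. The CCND1 and FGF19 bins are not whole bins of a TAD and were left out of this sum. The ratio between the maps was 0.958 (0.833 to 1.11), below the autosomal median of 1.24. By distance alone the ratios were 2.59 (2.33 to 2.90) and 1.44 (1.25 to 1.66), where all window contacts shifted by 1.46, so the direction of the second depended on the expectation.

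**Figure D3:**
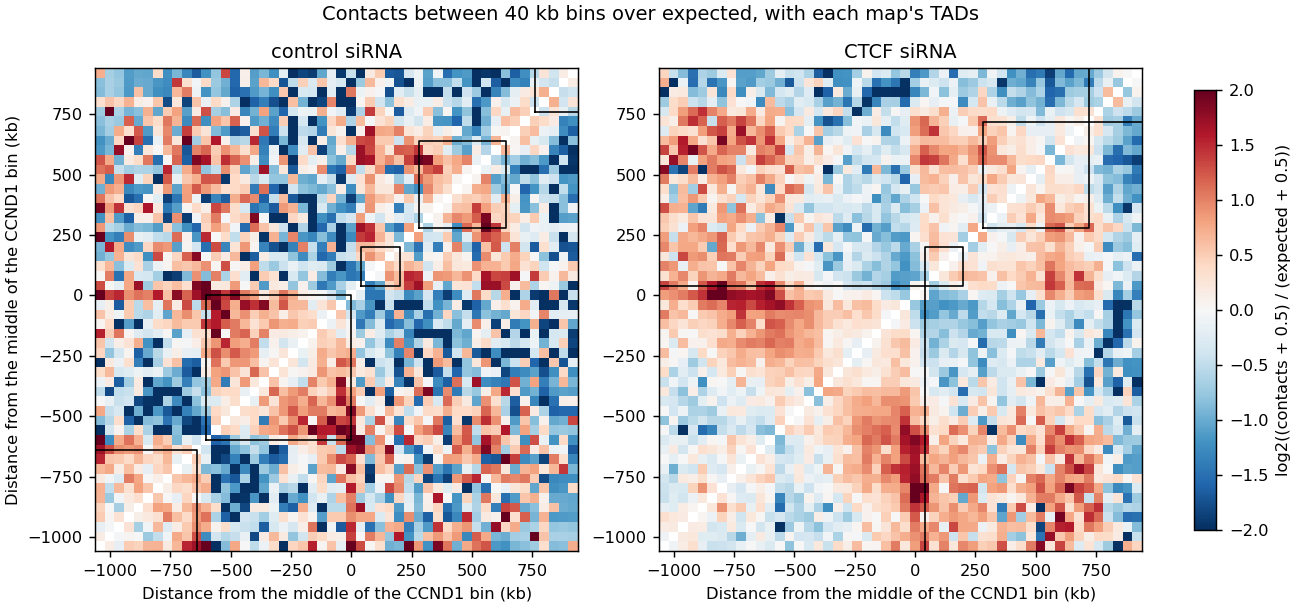
Contacts between the 40 kb bins of the window over expected in control siRNA (left) and CTCF siRNA (right), as log2 with 0.5 added to both counts, with both axes in kb from the middle of the CCND1 bin and each map's TADs outlined. The depleted block between the first and second control TADs, 0.694 of expected in control siRNA, is at 1.123 in CTCF siRNA, and the red stripe of the CCND1 and FGF19 bins reaches past the control edge at -600 kb.

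CCND1 had more contacts than expected with the MYEOV side, in both maps, and the excess was lower in CTCF siRNA. The MYEOV side was taken as the 4 bins after TPCN2 up to and including the MYEOV bin, 68920001-69080000. CCND1 had 42 contacts with it against 15.04 expected in control siRNA, a value of 2.79 (2.01 to 3.77). In CTCF siRNA it had 176 against 116 expected, or 1.52 (1.30 to 1.76). At the same offsets, 578 of 38617 autosomal bins had a control value as high, CCND1 included.

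The ratio between the maps was 0.544 (0.387 to 0.782). A fall of at least 1.5-fold at these offsets was seen in 14.6% of the autosomal bins. The size of the fall depended on the expectation: by distance alone the ratio was 0.877 (0.623 to 1.26), or 0.601 relative to the shift of the window. With the MYEOV bin and its direct neighbours as the side, it was 0.748 with an interval that held 1 (0.457 to 1.29). Of the 4 bins, the one at 68960001, with a CTCF core match, had the most contacts with CCND1, 19 in control siRNA (3.84 times expected) and 58 in CTCF siRNA (1.63 times). The MYEOV bin itself had 6 and 35, or 1.90 (0.70 to 4.13) and 1.47 (1.03 to 2.05) times expected, and its ratio of 0.776 (1.25 by distance alone) had an interval from 0.323 to 2.26.

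The bins nearer to CCND1 gave no such excess as a whole in the balanced maps. The 9 bins after the MYEOV start bin and before the CCND1 bin, of which the first 3 lie over the MYEOV gene, had 127 contacts with CCND1 in control siRNA, 0.999 of expected, and 676 in CTCF siRNA, 0.821 of expected. By distance alone these were 1.26 (1.05 to 1.496) and 1.49 (1.38 to 1.61) times expected, both above 1. The bin next to CCND1, at 69400001, was below expected in both maps, at 0.538 and 0.591.

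**Figure D4:**
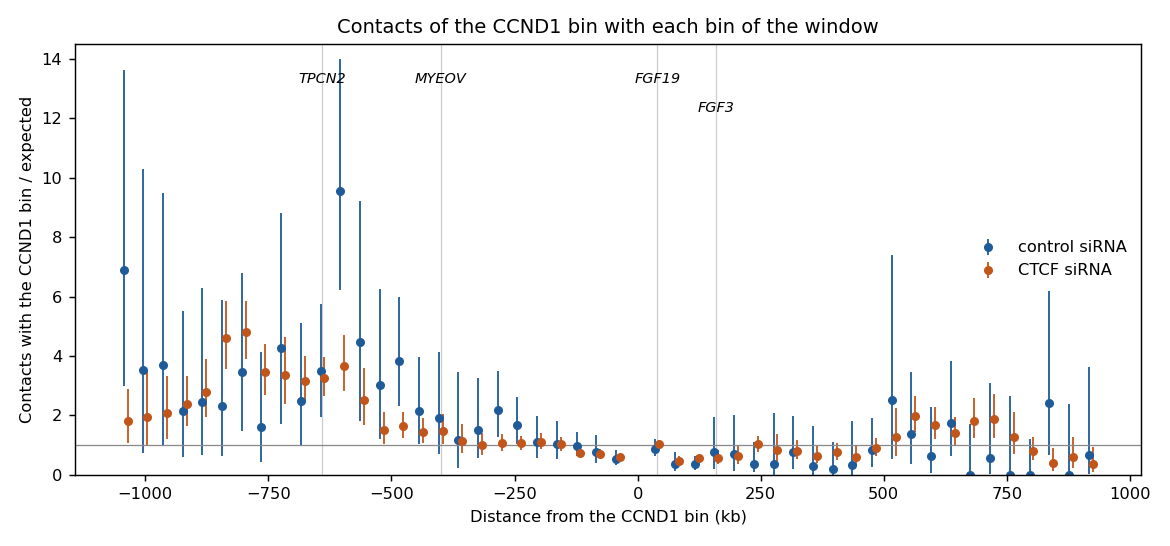
Contacts of the CCND1 bin with every other bin of the window over expected, by distance in kb, in control siRNA and CTCF siRNA, with 95% counting intervals. The value at -600 kb, the bin of the TPCN2 boundary, was 9.54 in control siRNA and 3.68 in CTCF siRNA, and bins from 80 to 160 kb after CCND1 were below 1 in both.

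In the balanced maps the highest pair in the window joined the 2 outer ends of the control domain. It was ranked among the 39 pairs at least 120 kb apart that had at least 20 contacts in each map, by the lower of their values. The control map had fewer contacts, so the minimum of 20 chose pairs mainly by high control counts, which favours ratios below 1. The ratios of these pairs are therefore descriptions, and their counting intervals leave that selection out. The CCND1 bin and the TPCN2 boundary bin at 68840001, 600 kb apart, had 26 contacts against 2.73 expected in control siRNA, 9.54 times expected (6.23 to 14.0). In CTCF siRNA they had 62 against 16.9, or 3.68 times (2.82 to 4.71). The ratio was 0.385 (0.240 to 0.635), and 0.488 (0.304 to 0.804) by distance alone. Of 2827 pairs of chromosome 11 bins at that distance, 2 had as many control contacts, this pair included.

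The FGF19 bin, which the edge at 69500000 divides, also had contacts above expected with the same TPCN2 boundary bin. It had 23 contacts, 7.66 times expected (4.86 to 11.5), in control siRNA, and 46, or 3.07 times (2.25 to 4.09), in CTCF siRNA. Its ratio was 0.401 (0.238 to 0.692). The bin just before the boundary bin, at 68800001, had 15 and 98 contacts with CCND1, or 3.49 and 3.26 times expected, with a ratio of 0.935 (0.540 to 1.73), or 1.34 (0.772 to 2.48) by distance alone. All 5 pairs named by this rule had ratios below 1 in the balanced maps, and 3 of them by distance alone. Of the other 3, 69760001 with 70000001, in the ANO1 domain, was at 3.88 and 1.93 times expected. The boundary bin with 69320001, between MYEOV and CCND1, was at 2.78 and 2.41 times expected, and 68960001 with 69320001 at 2.09 and 1.72. By distance alone the ranking changed. The lower values of these last pairs were then 6.28 and 6.32, above the 5.15 of CCND1 with the boundary bin.

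Beyond the TPCN2 boundary, contacts of CCND1 stayed above expected. With the 10 bins of the window before the TPCN2 start bin CCND1 had 53 contacts in control siRNA, 3.02 times expected (2.26 to 3.95), and 452 in CTCF siRNA, 3.29 times (2.995 to 3.61). The ratio was 1.09 (0.820 to 1.48), and 1.71 (1.29 to 2.32) by distance alone. Among bins at least 120 kb away with at least 20 contacts, the highest value in CTCF siRNA was 4.80, at 68640001, where MRPL21 and IGHMBP2 start, 800 kb from CCND1 (96 contacts). In control siRNA that pair had 8 contacts, 3.45 times expected (1.49 to 6.80), and only 3 bins reached 20 contacts, so the position of the peak is less certain there.

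MYEOV lay well inside its domain, and its insulation was high in both maps, at 0.44 ± 0.06 in control siRNA and 0.66 ± 0.02 in CTCF siRNA. The CTCF siRNA value was higher than in 98.8% of autosomal bins. The change of 0.22 (0.09 to 0.34) turned to -0.13 with 200 kb flanks. Its contacts across TPCN2 rose: with the 10 bins before the TPCN2 start bin MYEOV had 11 contacts in control siRNA, 0.375 of expected (0.187 to 0.670), and 197 in CTCF siRNA, 0.854 of expected (0.739 to 0.981). The ratio was 2.28 (1.25 to 4.64), and it was above 1 with each of the other expectations tried. All 4 bins of the MYEOV side together had 0.527 of the expected contacts with a wider set of 13 bins, 68400001-68920000, in control siRNA and 0.908 in CTCF siRNA. This set holds all of TPCN2, its boundary bins and the bin next to the MYEOV side, so not all of these contacts crossed the boundary. Most bin pairs of this sum and of the MYEOV sum lie in the block across the bin at 68840001. That bin was chosen for its rise, so both sums describe it again and are not a further result. In the other direction, MYEOV contacts with the 9 bins before CCND1 were 1.68 and 1.58 times expected, and the ratio of 0.945 (0.778 to 1.16) had an interval that held 1. By distance alone that ratio was 1.54 (1.26 to 1.88), and its interval left out 1 but held the window's shift of 1.46.

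Contacts of CCND1 with the FGF genes were near or below expected in both balanced maps, where the intervals of all 3 ratios held 1, but not by distance alone. CCND1 and FGF19 had 41 contacts in control siRNA and 257 in CTCF siRNA, 0.876 and 1.04 of expected, with a ratio of 1.18 (0.848 to 1.69). By distance alone they were at 1.19 and 1.66 times expected. The ratio of 1.40 (1.005 to 1.9998) had an interval that left out 1 but held the window's shift of 1.46. CCND1 and FGF4 had 11 and 114, or 0.351 and 0.548 of expected, with a ratio of 1.56 (0.840 to 3.22). By distance alone, without the coverage correction of either bin, these were 0.95 and 2.25 times expected, with a ratio of 2.37 (1.28 to 4.88). CCND1 and FGF3 had 4 and 25, or 0.755 and 0.560 of expected, with a ratio of 0.741 (0.256 to 2.93), and by distance alone the ratio was 1.39 (0.480 to 5.50). The 9 bins before CCND1 and the bins from FGF19 to FGF3 were at 0.636 of expected in control siRNA and 0.626 in CTCF siRNA, a ratio of 0.984 (0.857 to 1.13). By distance alone they were at 1.05 and 1.45 times expected, with a ratio of 1.37 (1.196 to 1.58), whose interval held the shift of the window.

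Among themselves the FGF gene pairs differed in direction in the balanced maps. FGF19 and FGF4, 80 kb apart, had 25 contacts in control siRNA, 0.479 of expected (0.310 to 0.707), and 223 in CTCF siRNA, 0.807 of expected (0.704 to 0.920). FGF4 and FGF3, 40 kb apart, had 74 and 432, 1.52 (1.195 to 1.91) and 1.06 (0.96 to 1.16) times expected. The first ratio was 1.68 (1.11 to 2.66), or 2.05 (1.35 to 3.24) by distance alone. The second was 0.696 (0.543 to 0.903), but 1.31 (1.02 to 1.69) by distance alone. FGF19 and FGF3 gave a ratio of 0.805 (0.418 to 1.70), or 1.21 (0.627 to 2.55) by distance alone. Each of these distance-only intervals held the window's shift of 1.46.

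Over all 10 pairs of the 5 genes, 4 ratios were past 1.5-fold, against 46.7% of autosomal bin pairs at the same distances. Of the 4, 2 were finite ratios above 1. MYEOV with FGF4 was below 1, at 0.462 (0.225 to 1.04), or 0.758 (0.369 to 1.71) by distance alone. MYEOV with FGF3 had no control contact and so gives no fold. The background share counts such pairs in the same way, and nothing is read from the count. Intervals left out 1 for 2 pairs, FGF19 with FGF4 and FGF4 with FGF3. MYEOV and FGF3 had no contact in control siRNA and 8 in CTCF siRNA, where 1.07 were expected in control siRNA.

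Contacts within the FGF gene domain could be summed over only 3 bin pairs, since the FGF19 bin is not a whole bin of the TAD. They were 178 in control siRNA, 1.21 of expected (1.04 to 1.40), and 1136 in CTCF siRNA, 1.14 of expected (1.08 to 1.21), with a ratio of 0.945 (0.806 to 1.11). Insulation at FGF4 was -0.46 ± 0.08 and -0.48 ± 0.03, and at FGF3 0.02 ± 0.07 and 0.01 ± 0.03, with changes of -0.02 at both bins. With flanks of 200 kb, nearer to the size of this domain, the values were 0.70 and 0.18 at FGF4 and 0.98 and 0.51 at FGF3. The changes were then -0.52 (-0.81 to -0.22) at FGF4, past the call, and -0.47 (-0.72 to -0.22) at FGF3. Its other edge, at 69660000, was weak: contacts across it were 1.14 times expected in control siRNA and 1.09 in CTCF siRNA. The bins from FGF19 to FGF3 contacted the rest of the window after FGF3, which holds ANO1, FADD, PPFIA1 and CTTN, at 1.52 times expected in control siRNA and 1.32 in CTCF siRNA, a ratio of 0.868 (0.799 to 0.944). By distance alone the values were 1.77 and 2.34 and the ratio was 1.33 (1.22 to 1.44), so its direction depended on the expectation. It was below the window's shift of 1.46.

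The direction of contacts gave a measure that needs no expectation, but its raw counts are not corrected for the coverage of partner bins. For CCND1 the range of 600 kb ends on the TPCN2 boundary bin, with 26 and 62 contacts. It leaves out the bins beyond. Within 600 kb on each side, 202 of 292 contacts of the CCND1 bin in control siRNA pointed to lower coordinates, the side of MYEOV, or 69.2% (63.7 to 74.2, Wilson). In CTCF siRNA 943 of 1699 did, or 55.5%. The difference was -13.7 points (-19.5 to -7.9), and 5.69% of 51999 autosomal bins had a difference as low. The FGF19 bin, 40 kb on, pointed the other way, with 42.3% and 44.8% to lower coordinates, a difference of 2.53 points (-3.39 to 8.45).

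MYEOV (36.1% and 38.6%) pointed towards CCND1 in both maps, and FGF4 (43.5% and 44.1%) was near its FGF19 neighbour. FGF3 stood at 65.1% and 59.0%, a difference of -6.02 points with an interval from -13.4 to 1.32. The interval of the difference left out 0 for CCND1 and held 0 for the other 4 bins. With neighbouring bins left out, the MYEOV difference was 8.57 points (1.32 to 15.8), which also left out 0. CCND1 also had more contacts with the window after FGF3: 40, or 0.650 of expected, in control siRNA, and 457, or 1.004 of expected, in CTCF siRNA. The ratio was 1.54 (1.116 to 2.19), or 2.41 (1.74 to 3.42) by distance alone, an interval that left out the window's shift of 1.46. These contacts cross the boundary between CCND1 and the FGF genes. Their autosomal share was not computed, so how common such a ratio is was not tested.

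**Figure D5:**
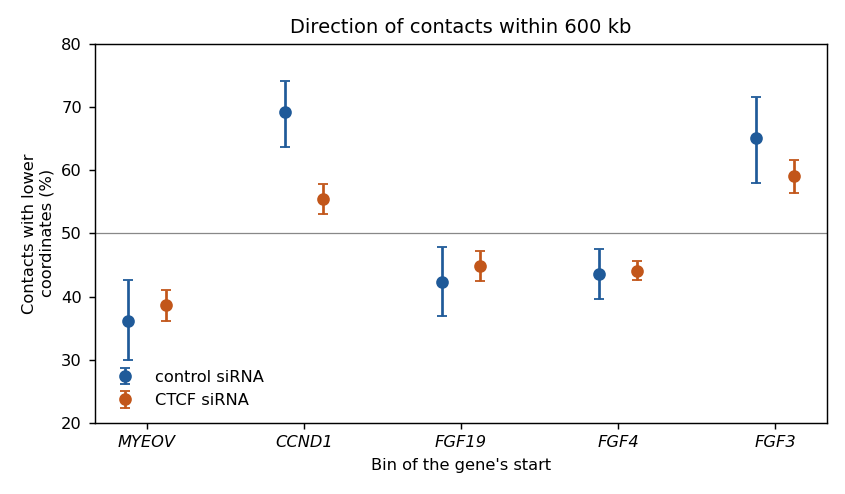
Share of contacts within 600 kb that pointed to lower coordinates (percent, with Wilson 95% intervals) for the bins of the 5 genes in control siRNA and CTCF siRNA. CCND1 moved from 69.2% to 55.5%, and the other 4 bins changed by 6.02 points or less.

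CCND2, the paralogue of CCND1 on chromosome 12, also lies beside FGF genes (FGF23 and FGF6) and TIGAR. All 4 genes lay in 1 TAD in both lists, 3940001-4620000 (680 kb) in control siRNA and 3380001-4620000 (1240 kb) in CTCF siRNA, with no listed edge between the cyclin and the FGF genes, unlike the 11q13 locus. Contacts of these bins were not analysed here, because contacts started at position 9400001 of the chromosome in both maps.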

How the data were processed

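The siRNA given in the labels set the group of each LNCaP Hi-C library. The authors digested chromatin with BglII, aligned read pairs to hg19 with HiCUP (the submitters' notes name Bowtie 1.1.0, SAMtools 1.2 and Picard 1.121), pooled the libraries of a condition, and deposited 1 map of contacts between 40 kb bins and 1 TAD list for each, from a directionality index and a hidden Markov model. The deposited contact values were whole counts in the window and counts multiplied by a factor for each bin between positions 9400001 and 48120000. These counts were recovered by division (100% and 99.9997% whole) and enter only the expected values of chromosome 11 and the autosomal comparisons.

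Bins were kept if their contacts within the chromosome were at least 10% of its median, in each map. Expected contacts were the chromosome 11 mean at each distance for insulation, and that mean with iteratively balanced bias of both bins for contacts between places. Genes were placed by their first transcribed base in GENCODE (v44lift37). Observed over expected carries an exact Poisson interval, a ratio an exact conditional binomial interval and a share a Wilson interval. Read pairs carry no molecular identifiers, so these cover counting error only. With 1 map per condition, no test was run. A bin was called at an insulation change of 0.5 and contacts at a 1.5-fold ratio. TAD edges within 40 kb were shared, and edges lie at bin middles, so CCND1 and FGF19 bins are not whole bins of a TAD. Python 3.11.15 with numpy 2.4.6 and scipy 1.17.1 was used, and the measures were tested on simulated maps with removed boundaries. The members and lists were chosen with earlier results of these data known. Named genes were the 5 members, fixed neighbours, genes at TAD edges, the 5 highest bin pairs and the bins of largest insulation change, and other bins were named after their values were seen. What separates the further versions of CTCF siRNA replicates is not stated in the labels.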

Additional observations from a re-analysis of the deposited data

How the results depend on the processing

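Of 329 values under another setting, 261 stayed within the interval of the reported value (or within 1.5 times for counts), 64 moved beyond it, and 4 insulation levels whose interval left out 0 changed sign. The rise at the TPCN2 boundary bin was 1.70 with flanks of 200 kb and 0.70 with flanks of 800 kb. Bins with a fall of at least 0.5 numbered 1 with 200 kb and 3 with 800 kb flanks. With 800 kb flanks the lowest bin between CCND1 and FGF3 in CTCF siRNA was 40 kb from the CCND1 bin, the FGF19 bin, and not the CCND1 bin. By distance alone, the ratio of CCND1 with the MYEOV side was 0.877 and that across the line between CCND1 and FGF19 was 1.55, where all window contacts shifted by 1.46. Control edges shared numbered 3 at the same position only. The 4 levels were insulation at FGF4 with 200 kb flanks (0.70 in control siRNA and 0.18 in CTCF siRNA), at the TPCN2 boundary bin in CTCF siRNA with 800 kb flanks (0.15) and at the bin of the largest fall in control siRNA with 800 kb flanks (-0.045, with an interval that held 0). Some of the moved and remaining values also turned direction, among them the changes at MYEOV (-0.13) and CCND1 (-0.04) with 200 kb flanks and FGF3 insulation with neighbouring bins left out (-0.11 and -0.07). By distance alone, ratios crossing 1 included FGF4 with FGF3 (1.31) and the second with the next control TAD (1.44). The causes of these shifts were not tested. Settings for the contacts with bins before TPCN2, among FGF genes and between control TADs were added once the data had been seen. No paired analysis was possible because the authors pooled the libraries of a condition into 1 map, so single libraries could not be left out either. Batch, library and siRNA cannot be told apart in these maps. The control map limits precision: single bin pairs rest on few contacts (6 for CCND1 with MYEOV), and a difference inside their intervals was not detectable at this depth.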
